A study of Mus musculus with 10 samples.

Results

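The Kruppel-like factors (KLFs) are transcription factors that share 3 C2H2 zinc fingers at the carboxyl end and bind GC-rich and CACCC-type DNA. The 10 genes described here, *Klf2*, *Klf3*, *Klf4*, *Klf5*, *Klf6*, *Klf9*, *Klf10*, *Klf11*, *Klf13*, and *Klf15*, were chosen by gene name, and all 10 were among the 15668 genes tested in the RNA-Seq table. They were examined in the thoracic aortas of 3 control and 3 Prdm16SMKO mice, and in the peaks that ChIP-Seq gave for cultured primary vascular fibroblasts. Control mice carried Prdm16f/f alone, and Prdm16SMKO mice carried Prdm16f/f with SMMHC-CreERT2, a tamoxifen-inducible Cre driven by the smooth muscle myosin heavy chain promoter and inserted on the Y chromosome, so that deletion was aimed at smooth muscle and not at the other cells of the aorta. The study's methods also describe control mice that carry the Cre, but the labels give none to these 3, so that here an effect of the Cre transgene and one of the deletion cannot be told apart. The study's methods give tamoxifen by gavage to young adult male mice, followed by a washout, while the age at collection of these aortas, the hour at which they were taken, and whether the controls received tamoxifen are not given in the sources used here. The fibroblasts, wild type by label, received a lentivirus carrying either Flag-PRDM16 or no insert for 48 hours. They were selected over 1 week in puromycin at 2 μg/mL, and chromatin was then precipitated through the Flag tag, with 1 library each.

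KLFs fall into subgroups by the partners they recruit. *Klf3* binds the corepressor CtBP, *Klf2*, *Klf4*, *Klf5*, and *Klf6* belong with factors that can recruit acetyltransferases, and *Klf9*, *Klf10*, *Klf11*, and *Klf13* bind the Sin3A corepressor. In the vessel wall, *Klf2* and *Klf4* are known for the endothelial response to flow, *Klf4* and *Klf5* for the loss of the contractile smooth muscle phenotype, and *Klf9* and *Klf15* as targets of glucocorticoids, while *Klf10* and *Klf15* are among the genes expressed with a daily rhythm in several tissues.

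Expression was deposited as TPM, a share of the transcripts of a library that is scaled by transcript length, so that levels may be compared between genes. TPM values keep no read counts, so the depth behind a value is unknown. The groups were compared with limma on log2(TPM + 0.1), a scale that understates changes of low genes, and a gene is referred to as called if its Benjamini-Hochberg adjusted *P* value over all genes tested was under 0.05. The labels do not say whether the aortas came from separate litters or days, and *P* values measure the spread between these 6 samples. *Prdm16* had 40.3 to 56.1 TPM in control and 23.3 to 33.3 TPM in Prdm16SMKO aortas, without overlap (log2 fold change −0.85, adjusted *P* = 0.072 by limma). The median log2 fold change of all genes tested was −0.12 on the deposited values. It was 0.0046 once the aortas had been put on a common scale, by dividing each by the median, over genes, of its ratio to the 6-aorta geometric mean (median-ratio rescaling), and fold changes of the KLF genes are to be read against that shift. Smooth muscle markers were abundant, with 23050 to 26974 TPM in sum over 9 genes in control and 15868 to 20164 TPM in Prdm16SMKO aortas, with 0 of the 9 called by limma and 5 at an unadjusted *P* value under 0.05. *Acta2*, smooth muscle actin, made up most of that difference, with a mean of 11569 TPM in control and 7512 TPM in Prdm16SMKO aortas, while *Myh11* and *Cald1* overlapped between the groups and *Des*, the gene for desmin, was higher without overlap (log2 fold change 0.45, adjusted *P* = 0.23 by limma). Of the 9 markers, 7 were lower and 2 higher in Prdm16SMKO aortas, with a median log2 fold change of −0.30. Without overlap, 4 were lower, *Acta2* among them, and 1 was higher. In whole aorta, fewer cells of a type and less RNA per cell cannot be told apart.

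The 10 genes covered about 2 orders of magnitude, from *Klf6* and *Klf9* at a mean of 106.2 and 100.4 TPM over the 6 aortas down to *Klf5* at 1.09 TPM. *Klf6* and *Klf9* together held 49.4% to 56.8% of the summed TPM of the 10 genes. That sum was 389.7 to 450.6 TPM in control and 341.6 to 403.8 TPM in Prdm16SMKO aortas, with overlap. *Klf10*, *Klf11*, and *Klf5* held ranks 8, 9, and 10 in every aorta, whereas *Klf2*, *Klf13*, *Klf15*, and *Klf3*, with means of 46.5, 36.1, 33.3, and 32.5 TPM, held ranks between 3 and 7. Each gene of these 4 changed places with the next in at least 1 aorta, so that neighbours in this order did not differ beyond their spread, while *Klf2* lay above *Klf3* in all 6 aortas. *Klf4* followed at 20.6 TPM, *Klf10* at 9.70 TPM, and *Klf11* at 7.21 TPM. By mean TPM, *Klf6* stood above 94.8% of the genes tested and *Klf5* above 13.95%. The sum of the other cells' markers overlapped between the groups for endothelium, macrophages, adipocytes, skeletal muscle, and red cells, and also for fibroblasts, at 2323 to 3099 TPM in control and 1773 to 2378 TPM in Prdm16SMKO aortas, where *Col3a1*, a fibrillar collagen gene, was called lower (adjusted *P* = 0.035 by limma). Of the 9 fibroblast markers, 4 were higher and 5 lower in Prdm16SMKO aortas, with a median log2 fold change of −0.06. Of the leukocyte markers, *Cd74*, the invariant chain of antigen presentation, was higher without overlap, at 24.8 to 55.3 TPM against 15.8 to 19.1 TPM in control (log2 fold change 1.01, adjusted *P* = 0.13 by limma). *Cd74* was the only 1 of the 8 leukocyte markers tested without overlap. Of these 8, 5 were higher and 3 lower in Prdm16SMKO aortas, with a median log2 fold change of 0.01.

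**Figure D1:**
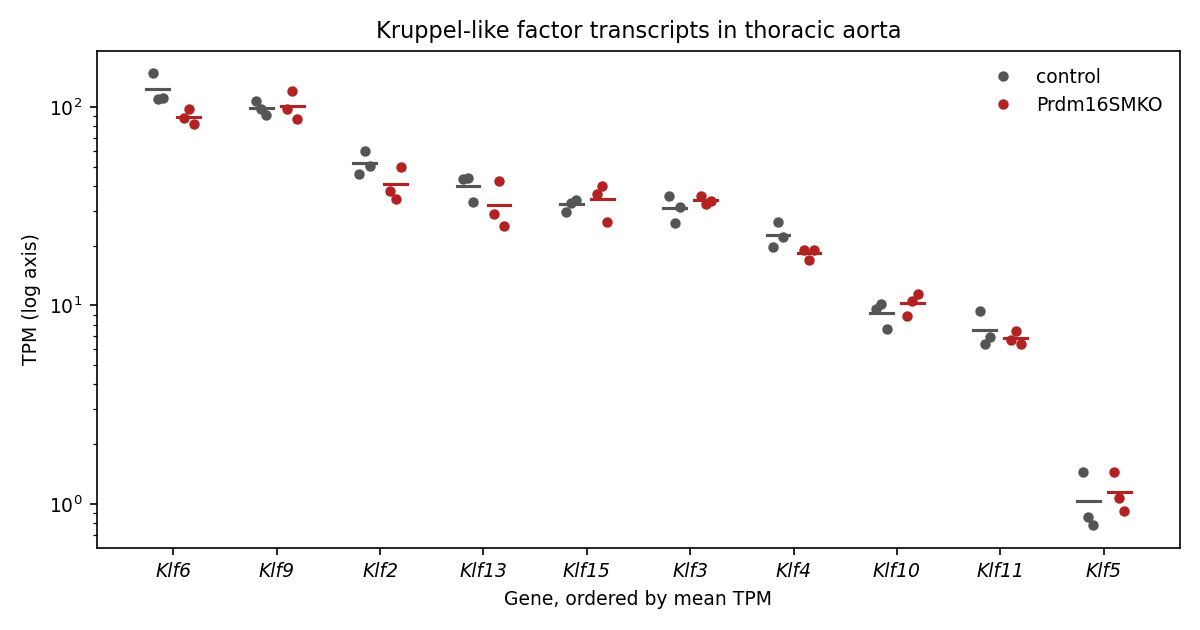
TPM on a log axis for each of the 10 KLF genes in 3 control (grey) and 3 Prdm16SMKO (red) aortas, with points for aortas and lines for group means. *Klf6* and *Klf4* are the genes whose Prdm16SMKO points all lie under the control points, and *Klf5* lies near 1 TPM in both groups.

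Between the groups, none of the 10 genes was called by limma, where 1.07% of all genes tested were (0.389% higher and 0.683% lower in Prdm16SMKO aortas). The study's own analysis differs here. Its supplement lists *Klf6* as lower and *Klf10* as higher among differentially expressed genes with a PRDM16 promoter peak. It also lists genes named below that were not called here. Among them are *Mapk7* and *Tsc22d3* as higher, and *Mef2a*, *Smad3*, *Jun*, *Atf3*, *Fosl2*, and *Erg* as lower. That analysis was not repeated here, and the methods do not name its test. One of the 10, *Klf6*, had an unadjusted *P* value under 0.05, against 12.7% of all genes tested. For 2 genes, *Klf4* and *Klf6*, every Prdm16SMKO value was lower than every control value, a share of 20% where 19.0% of all genes tested had groups without overlap in either direction, 14.9% in this direction, and 4.08% in the other. The count is therefore near the background and is not a result about the family. Counts in the other gene lists are to be read against these same shares. The median log2 fold change of the 10 genes was −0.04 (range, −0.46 to 0.17), 5 were higher and 5 lower in Prdm16SMKO aortas, and the adjusted *P* values by limma were 0.22 to 0.96.

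**Figure D2:**
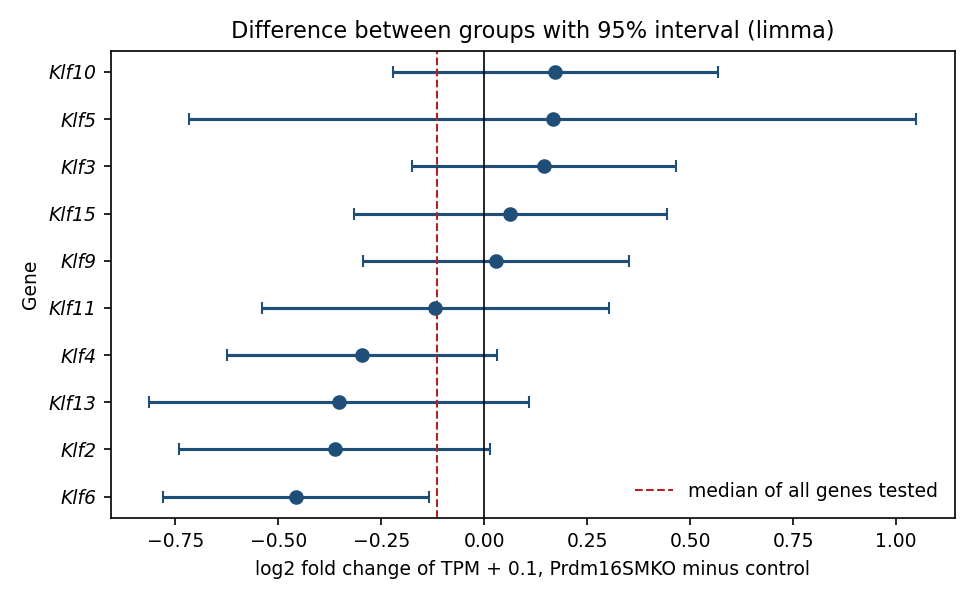
Log2 fold change of TPM + 0.1, Prdm16SMKO minus control, with the unadjusted 95% interval from limma for each gene, and the median of all genes tested as a dashed line at −0.12. The interval of *Klf6*, from −0.78 to −0.13, is the one of the 10 that does not include 0.

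Of the acetyltransferase-linked genes, *Klf6*, an early-response gene of injured vessels and other tissues, had 148.0, 110.4, and 111.3 TPM in the control aortas and 87.8, 97.5, and 82.0 TPM in the Prdm16SMKO aortas. The groups did not overlap, and control aorta 1 stood apart above all others. The means were 123.2 ± 21.4 and 89.1 ± 7.87 TPM (SD, n = 3 each), so that the Prdm16SMKO mean was 72.3% of the control mean. The log2 fold change was −0.46 with a standard error of 0.14 (adjusted *P* = 0.22 by limma). Without control aorta 1 the log2 fold change was −0.32 (adjusted *P* = 0.42 by limma), and after median-ratio rescaling it was −0.34 (adjusted *P* = 0.071 by limma), with the groups still not overlapping.

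*Klf2*, which endothelial cells induce under laminar flow, had 46.0, 60.1, and 50.6 TPM in control and 38.0, 34.6, and 50 TPM in Prdm16SMKO aortas. Prdm16SMKO aorta 3 lay within the control range while the other 2 lay below it. The log2 fold change was −0.36 (95% interval, −0.74 to 0.01; adjusted *P* = 0.42 by limma). *Klf4*, a pluripotency factor that also represses contractile genes in injured smooth muscle, had 19.8, 26.3, and 22.1 TPM in control and 19.0, 17.1, and 19.1 TPM in Prdm16SMKO aortas. These groups did not overlap as deposited but did after median-ratio rescaling. Its log2 fold change was −0.30 (95% interval, −0.63 to 0.03; adjusted *P* = 0.44 by limma), against −0.19 without control aorta 2 and −0.17 after median-ratio rescaling. *Klf5*, linked to smooth muscle proliferation, was near the filter at 0.78 to 1.45 TPM, with the same highest value of 1.45 TPM in both groups and a wide interval of the log2 fold change from −0.72 to 1.05.

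Both *Klf2* and *Klf4* are expressed by endothelial cells, so endothelial markers were set beside them. The summed level of 10 markers was 186.6 to 227.9 TPM in control and 131.8 to 244.8 TPM in Prdm16SMKO aortas, with none of the 10 at 0 in every aorta, 0 of 10 called by limma, and 2 at an unadjusted *P* value under 0.05. *Erg* and *Cldn5* were lower in every Prdm16SMKO aorta than in every control aorta, with log2 fold changes of −0.54 and −1.09 and adjusted *P* values by limma of 0.084 and 0.17. Of the 10 endothelial markers, 4 were higher and 6 lower in Prdm16SMKO aortas, with a median log2 fold change of −0.03. The part of endothelial cells in the *Klf2* and *Klf4* values was not tested. Of 9 tested genes that lie downstream of *Klf2* and *Klf4* in endothelium, 1 was called, where 1.07% of all genes tested were. This was *Ace*, the angiotensin-converting enzyme, which fell from 113.6 to 137.5 TPM in control to 68.6 to 85.3 TPM in Prdm16SMKO aortas (log2 fold change −0.74, adjusted *P* = 0.036 by limma). *Thbd*, the anticoagulant receptor thrombomodulin, had 29.2 to 31.6 TPM against 21.2 to 24.1 TPM (log2 fold change −0.40, adjusted *P* = 0.20 by limma). *Edn1*, the vasoconstrictor endothelin 1, had 5.45 to 8.09 TPM against 0.85 to 2.69 TPM (log2 fold change −1.92, adjusted *P* = 0.057 by limma). *Gja4*, a gap junction gene, had 4.79 to 5.89 TPM against 7.33 to 10.3 TPM and was thus higher in Prdm16SMKO aortas (adjusted *P* = 0.20 by limma). The median log2 fold change of these 9 genes was −0.12, the same to 2 decimals as that of all genes tested. The list was not split into genes that *Klf2* and *Klf4* raise and genes that they lower. Neither its median nor a shared direction of its genes measures the activity of these factors.

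Upstream of *Klf2* and *Klf4*, none of 8 genes of the flow-sensing and ERK5-MEF2 route was called by limma, and 3 had groups without overlap, the same 3 that had an unadjusted *P* value under 0.05. Of all genes tested, 19.0% had groups without overlap and 12.7% had an unadjusted *P* value under 0.05 by limma. *Piezo1*, a mechanically gated channel, had 14.4 to 21.1 TPM in control and 8.96 to 12.6 TPM in Prdm16SMKO aortas (log2 fold change −0.78, adjusted *P* = 0.12 by limma). *Mef2a*, the MEF2 factor A, was lower (log2 fold change −0.35, adjusted *P* = 0.33), and *Mapk7*, the gene for ERK5, was higher at 12.14 to 13.95 TPM against 8.39 to 9.86 TPM (log2 fold change 0.48, adjusted *P* = 0.20 by limma).

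Of the Sin3A-binding genes, *Klf9* had 107.9, 97.8, and 91.3 TPM in control and 98.0, 120.8, and 86.6 TPM in Prdm16SMKO aortas. Prdm16SMKO aortas held both the highest and the lowest value, and the log2 fold change was 0.03 (95% interval, −0.29 to 0.35; adjusted *P* = 0.96 by limma). After median-ratio rescaling, every Prdm16SMKO value of *Klf9* was higher than every control value. *Klf10*, first described as a TGF-β-inducible early gene, had 9.60, 10.2, and 7.58 TPM in control and 8.86, 10.5, and 11.5 TPM in Prdm16SMKO aortas, a log2 fold change of 0.17 (95% interval, −0.22 to 0.57; adjusted *P* = 0.71 by limma). Without control aorta 3 it was 0.046, without Prdm16SMKO aorta 3 it was 0.09, and without Prdm16SMKO aorta 1 it was 0.28. Its relative *Klf11* had 9.35, 6.38, and 6.92 TPM in control and 6.72, 7.47, and 6.40 TPM in Prdm16SMKO aortas, where control aorta 1 was the highest and the groups overlapped (log2 fold change −0.12; 95% interval, −0.54 to 0.30; adjusted *P* = 0.83 by limma).

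*Klf13*, a regulator of lymphocyte and cardiac genes, had 43.2, 44.0, and 33.4 TPM in control and 28.8, 42.2, and 25.0 TPM in Prdm16SMKO aortas. Prdm16SMKO aorta 2 lay among the controls and the other 2 below them. The log2 fold change was −0.35 (95% interval, −0.81 to 0.11; adjusted *P* = 0.51 by limma), and it was −0.57 without Prdm16SMKO aorta 2 and −0.19 without Prdm16SMKO aorta 3 (adjusted *P* = 0.18 and 0.84 by limma). *Klf13* shares its locus with *Gm27252* and *E030018B13Rik* on the opposite strand, which had at most 2.69 and 1.38 TPM. Whether reads were counted by strand is not given in the sources used here, so reads of these genes and *Klf13* may not be separable. The same holds for *Klf3* and *Gm20033*, which had at most 1.61 TPM. *C230096K16Rik*, at most 1.82 TPM, overlaps *Klf3* on its own strand, where stranded counting would not separate them either.

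*Klf3*, the CtBP-binding member and a repressor of other KLF targets, had 35.6, 26.0, and 31.5 TPM in control and 35.8, 32.6, and 33.7 TPM in Prdm16SMKO aortas (log2 fold change 0.14; 95% interval, −0.18 to 0.47; adjusted *P* = 0.71 by limma). The log2 fold change was 0.25 without control aorta 1, the highest control, and 0.024 without control aorta 2, the lowest. *Klf15*, which controls amino acid and lipid catabolism, had 29.7, 33.0, and 34.2 TPM in control and 36.4, 39.9, and 26.3 TPM in Prdm16SMKO aortas. The Prdm16SMKO values lay on both sides of the control values, with a log2 fold change of 0.06 (95% interval, −0.32 to 0.44; adjusted *P* = 0.92 by limma). None of 10 genes of amino acid and lipid catabolism linked to *Klf15* was called by limma, and 2 had an unadjusted *P* value under 0.05. Of the 10, 2 were higher and 8 lower in Prdm16SMKO aortas, with a median log2 fold change of −0.08. Without overlap, 1 was higher and 1 lower. *Prodh*, the gene for proline dehydrogenase, had 5.08 to 5.50 TPM in control and 3.40 to 3.85 TPM in Prdm16SMKO aortas (log2 fold change −0.55, adjusted *P* = 0.22 by limma).

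The order of the most abundant pair differed between the groups. *Klf6* was the most abundant of the 10 genes in all 3 control aortas, and *Klf9* was in all 3 Prdm16SMKO aortas. The TPM ratio of *Klf6* to *Klf9*, which does not depend on how a library is scaled, was 1.37, 1.13, and 1.22 in control and 0.896, 0.807, and 0.946 in Prdm16SMKO aortas, or 1.24 ± 0.122 and 0.883 ± 0.0703 (SD, n = 3 each). The 2-sided exact permutation *P* value was 0.1, the smallest that 3 aortas against 3 can give, and the pair was singled out after its values were seen. Of the 45 pairs among the 10 genes, the within-aorta ratio separated the groups for 9 (20%), 6 of which contained *Klf6*, where 20.7% of all pairs of genes tested were separated. The share among KLF pairs is near that background.

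**Figure D3:**
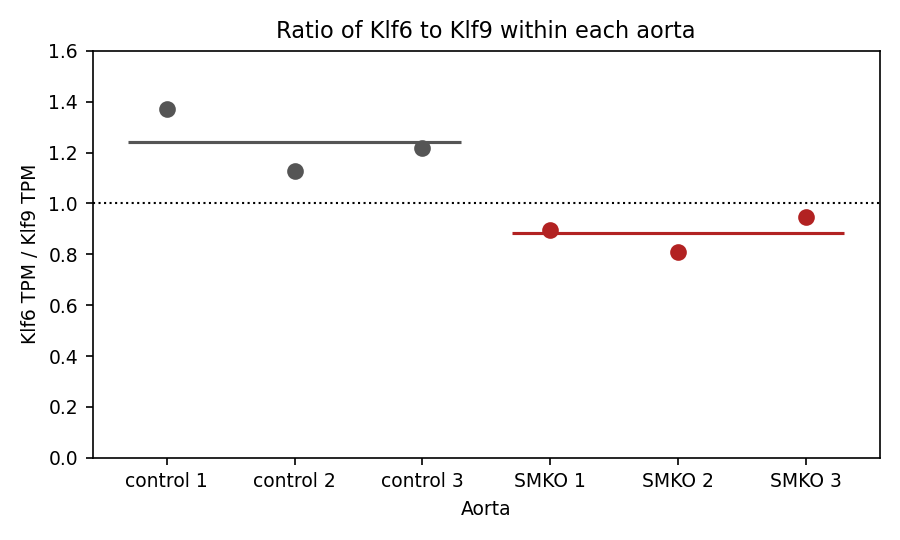
Ratio of *Klf6* TPM to *Klf9* TPM in each aorta, with a line at each group mean and a dotted line at 1. The 3 control aortas lie between 1.13 and 1.37 and the 3 Prdm16SMKO aortas between 0.807 and 0.946.

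Several KLF genes, *Klf6*, *Klf4*, *Klf2*, and *Klf10* among them, are induced within minutes to hours by handling, serum, or stress, so immediate-early genes were set beside them. Of 18 such genes, 1 was called, where 1.07% of all genes tested were. This was *Nr4a1*, an orphan nuclear receptor, which fell from 85.1 to 110.3 TPM in control to 29.9 to 51.8 TPM in Prdm16SMKO aortas (log2 fold change −1.32, adjusted *P* = 0.020 by limma). *Jun*, *Atf3*, and *Fosl2* were also lower without overlap, with log2 fold changes of −0.65, −0.86, and −0.57 (adjusted *P* = 0.17, 0.24, and 0.14 by limma), while *Maff*, *Ier2*, and *Egr2* were higher without overlap, at 0.59, 0.35, and 0.86 (adjusted *P* = 0.12, 0.39, and 0.38 by limma). Control aorta 1, which had the highest *Klf6* value, also had the highest *Fos* at 75.9 TPM against 12.4 to 27.8 TPM in the other aortas. The summed level of the 18 genes was 906 to 1446 TPM in control and 746 to 1129 TPM in Prdm16SMKO aortas. Their part in the *Klf6* values was not tested.

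For the steroid and daily signals that act on *Klf9*, *Klf10*, and *Klf15*, none of 10 glucocorticoid-responsive genes was called by limma, and 2 had an unadjusted *P* value under 0.05. Of these 10 genes, 4 were higher and 6 lower in Prdm16SMKO aortas, with a median log2 fold change of −0.08. *Tsc22d3*, a steroid-induced anti-inflammatory gene, had 14.3 to 16.2 TPM in control and 18.3 to 26.3 TPM in Prdm16SMKO aortas (log2 fold change 0.49, adjusted *P* = 0.24 from limma), and *Fkbp5*, a chaperone of the steroid receptor, had 8.21 to 11.7 TPM against 10.13 to 13.97 TPM with overlap. Of 17 clock genes, 3 were called higher and 1 lower, with a median log2 fold change of 0.51. Of all genes tested, 0.389% were called higher and 0.683% lower. *Npas2*, a partner of BMAL1, fell by 1.94 on the log2 scale (adjusted *P* = 0.0079), and the repressors *Cry1*, *Bhlhe40*, and *Ciart* rose by 1.64, 1.11, and 1.79 (adjusted *P* = 0.012, 0.0089, and 0.020 by limma). By comparison, *Klf9*, *Klf10*, and *Klf15* had log2 fold changes of 0.03, 0.17, and 0.06. Of 10 genes of TGF-β signaling, the pathway that induces *Klf10* and *Klf11*, 0 were called by limma and 5 had an unadjusted *P* value under 0.05. Of the 10, 4 were higher and 6 lower in Prdm16SMKO aortas, with a median log2 fold change of −0.03. Without overlap, 3 were higher and 3 lower. *Smad3*, a signal transducer of the pathway, had 10.3 to 13.9 TPM in control and 6.52 to 8.21 TPM in Prdm16SMKO aortas (log2 fold change −0.66, adjusted *P* = 0.13 by limma).

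None of the 12 corepressors and coactivators of KLFs was called by limma or had an unadjusted *P* value under 0.05, and 11 were lower, with a median log2 fold change of −0.12, that of all genes tested. *Hdac2*, a histone deacetylase of the Sin3A complex, was the one without overlap, at 40.6 to 42.9 TPM in control and 31.8 to 36.6 TPM in Prdm16SMKO aortas (log2 fold change −0.26, adjusted *P* = 0.40 by limma). Of the other KLF and Sp factors, 8 of 16 passed the TPM filter, 0 were called by limma, and 1 had an unadjusted *P* value under 0.05, namely *Sp4*, a relative of the KLFs, at 6.59 to 9.06 TPM against 4.27 to 5.68 TPM (log2 fold change −0.69, adjusted *P* = 0.16 by limma). *Klf7*, a close relative of *Klf6*, had 26.5, 18.3, and 18.7 TPM in control and 15.8, 19.2, and 16.6 TPM in Prdm16SMKO aortas, with control aorta 1 again highest and the groups overlapping.

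The PRDM16 ChIP-Seq list held 18 peaks in or within 10 kb of the 10 genes, on GRCm38, out of 11271 in all. The vector list held 0 of its 67 peaks there, and with so few peaks this 0 says little about these genes. Each condition had 1 library, so these values have no replicate check. A promoter peak is one whose centre lies within 2 kb of a transcription start site (TSS) of a curated RefSeq transcript. Of the 10 genes, 9 had at least 1 promoter peak (90.0%), and *Klf15* had none. Over the 13202 genes tested with a curated TSS, 43.5% had a promoter peak, as did 47.8% of those at a mean TPM of at least 5, 51.1% of those at 20 or more, 49.7% of those with a CpG-rich promoter, 26.8% of those with another promoter, and 46.4% of those whose groups did not overlap in the aorta. In all, 4 of the 10 genes, *Klf2*, *Klf4*, *Klf10*, and *Klf11*, had more than 1 promoter peak, as did 6.96% of genes tested. Of the 14 promoter peaks of KLF genes, 10 (71.4%) had their centre downstream of the nearest TSS, where 79.6% of all 6873 promoter peaks did. The peaks were called in fibroblasts that carried a PRDM16 transgene, not in smooth muscle.

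**Figure D4:**
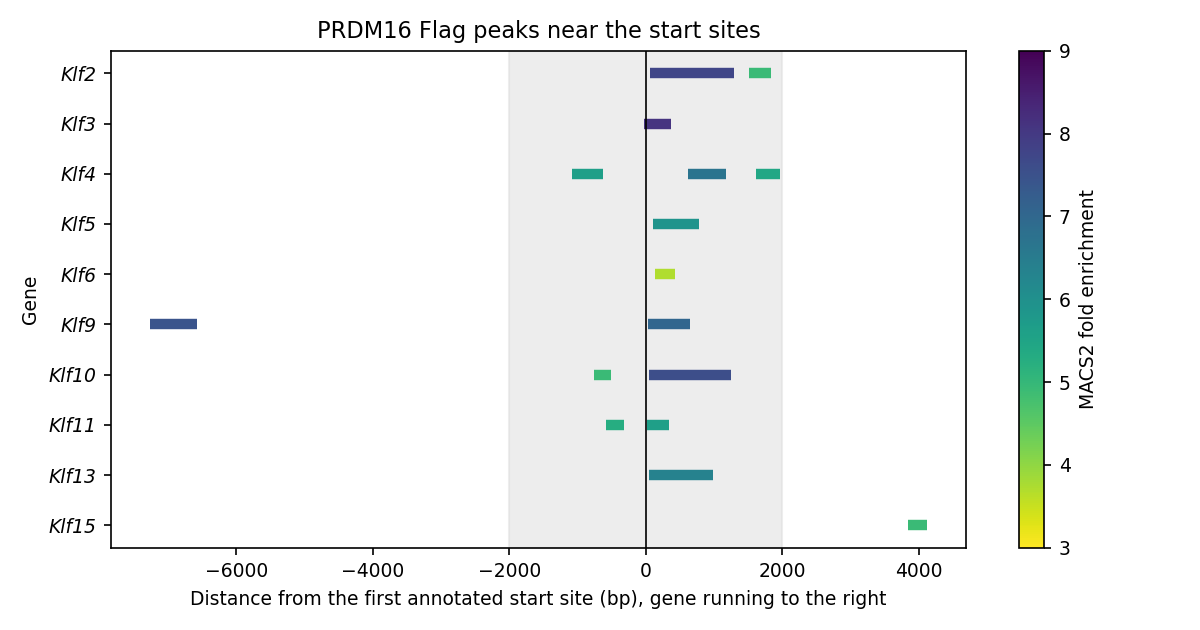
PRDM16 peaks (bars, drawn to length) near the first annotated TSS of each KLF gene, in bp with the gene running to the right, coloured by MACS2 fold enrichment, with 2 kb on either side shaded. *Klf15* has no bar in the shaded part, and the *Klf6* bar has the lowest enrichment of the promoter peaks, 3.72. The 2 intronic peaks of *Klf3* more than 12 kb downstream are not drawn.

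The fold enrichment that MACS2 gave over its local background ranged from 3.72 to 8.09 over the 14 promoter peaks, with a median of 5.76 against 5.27 over all 11271 peaks. The highest was at *Klf3*, chr5:64803497-64803887, which covered the TSS at 64803521 and exceeded 90.8% of all peaks. *Klf2* followed with a peak of 1229 bp, chr8:72319119-72320347, that started downstream of the TSS, had its summit in a coding exon, and was longer than 96.3% of all peaks (fold enrichment 7.73). At *Klf10* a peak of 1206 bp, chr15:38299459-38300664, had a fold enrichment of 7.58 and the highest −log10 q of the set, 14.7. Its centre lay at +650 bp from the first of 2 curated TSSs and at −161 bp from the other. *Klf9* had a promoter peak at chr19:23141258-23141868 (fold enrichment 7.03) and another outside the gene at chr19:23133960-23134646, centred at −6923 bp from the TSS (fold enrichment 7.44).

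*Klf4* was the one gene of the 10 with 3 promoter peaks. One lay upstream (chr4:55533106-55533560, fold enrichment 5.63), one in an intron (chr4:55531300-55531853, 6.68), and one in a coding exon (chr4:55530508-55530857, 5.44). *Klf11* had one on either side of its TSS, chr12:24650787-24651053 and chr12:24651388-24651709, with fold enrichments of 5.27 and 5.63. *Klf5* and *Klf13* had one each, chr14:99298790-99299472 (5.89) and chr7:63937929-63938871 (6.33).

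*Klf6*, the gene with the lowest *P* value of the 10 in the aorta, had the weakest promoter peak, chr13:5861619-5861914, with a fold enrichment of 3.72, above 8.43% of all peaks, and a −log10 q of 2.50. It was absent when peaks were restricted to a q of at most 0.001, a setting in which 8 of the 10 genes and 39.8% of genes tested had a promoter peak. The one peak of *Klf15*, chr6:90466420-90466697, lay in a coding exon 3982 bp downstream of the TSS (fold enrichment 4.92) and counted as a promoter peak only with a window of 5 kb, in which 45.6% of genes tested had one.

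The reference sequence of GRCm38 within 50 bases of a summit is shown for 6 of these peaks, on the strand of the gene and 5′ to 3′, to set the stronger promoter peaks of *Klf2* and *Klf4* beside the weakest promoter peak (*Klf6*), one of middle strength (*Klf11*), and 2 that lie away from a TSS (*Klf9* and *Klf15*). Capitals mark the GC box GGGCGG and the CACCC box CCACCC, on either strand, the kinds of DNA that KLFs themselves bind. At *Klf3* and *Klf13* the summit lies in a 5′ untranslated region and 30 bases are given.
Klf2, coding exon, chr8:72319739-72319839: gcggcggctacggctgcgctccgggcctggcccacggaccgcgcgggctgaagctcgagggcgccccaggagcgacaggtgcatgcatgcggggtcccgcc
Klf3, chr5:64803653-64803682: gcgcgtccgtgcggtcgcggtccctatccc
Klf4, intron, chr4:55531550-55531650: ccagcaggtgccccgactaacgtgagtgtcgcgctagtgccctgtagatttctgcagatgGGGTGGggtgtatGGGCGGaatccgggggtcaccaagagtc
Klf6, coding exon, chr13:5861655-5861755: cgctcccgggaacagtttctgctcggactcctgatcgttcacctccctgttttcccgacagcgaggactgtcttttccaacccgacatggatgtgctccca
Klf9, upstream peak, chr19:23134303-23134403: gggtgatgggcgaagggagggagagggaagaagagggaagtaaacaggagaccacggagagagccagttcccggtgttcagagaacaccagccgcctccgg
Klf11, upstream peak, chr12:24650872-24650972: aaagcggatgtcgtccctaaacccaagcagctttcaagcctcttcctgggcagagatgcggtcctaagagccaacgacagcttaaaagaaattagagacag
Klf13, chr7:63938755-63938784: ccgcacgcggaccctccttactggagcccc
Klf15, coding exon, chr6:90466524-90466624: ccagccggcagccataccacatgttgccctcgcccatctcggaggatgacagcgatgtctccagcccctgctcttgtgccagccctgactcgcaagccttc
Of these stretches, that of *Klf4* alone held a GC box and a CACCC box. Over the whole of the 14 promoter peaks, 9 held a GC box (52.8% of all peaks) and 6 a CACCC box (51.3% of all peaks), none held the GATA core AGATAA (9.47% of all peaks), and the median GC content was 67.1% against 63.0% over all peaks.

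RefSeq promoter sequences of GRCm38.p6, from 250 bases before to 50 after a start, were matched for 8 of the 10 genes, and *Klf5* and *Klf10* had no entry. Their GC content was 63.0% to 77.7%, against a median of 52.7% over 32851 promoters. The GC box was present in 7 of the 8, all but *Klf9*, and in 35.7% of all promoters, and the CACCC box in 3 of the 8 and in 31.5% of all promoters. The E-box CACGTG, the site bound by CLOCK or NPAS2 with BMAL1, was present in 4 of the 8, *Klf4*, *Klf6*, *Klf11*, and *Klf15*, and in 7.15% of all promoters. *Klf15* had 3 copies, and 29 of all promoters (0.0883%) had 3 or more. The observed to expected CpG ratio was 0.66 to 1.18 in the 8 promoters, against a median of 0.38 over all promoters. The E-box and the GC box each contain a CpG, so all promoters are not a matched background for either. A match of letters is a description and does not show that a factor binds there.

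The 250 bases before the start are shown for *Klf15*, the gene without a promoter peak, with the 2 upstream E-boxes in capitals, at −228 and −172 from the TSS, the remaining copy being in the bases after the start. They are shown for *Klf6* with its E-box in capitals, at −43, and for *Klf3*, which had the strongest promoter peak, with 6 GC boxes and 3 CACCC boxes in capitals, of which some adjoin.
Klf15, chr6:90462326-90462575: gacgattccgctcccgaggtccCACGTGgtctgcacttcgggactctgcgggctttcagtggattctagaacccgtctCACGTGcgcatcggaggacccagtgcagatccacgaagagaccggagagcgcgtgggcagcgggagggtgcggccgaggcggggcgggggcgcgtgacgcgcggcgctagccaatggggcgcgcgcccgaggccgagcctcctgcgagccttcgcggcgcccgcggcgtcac
Klf6, chr13:5861239-5861488: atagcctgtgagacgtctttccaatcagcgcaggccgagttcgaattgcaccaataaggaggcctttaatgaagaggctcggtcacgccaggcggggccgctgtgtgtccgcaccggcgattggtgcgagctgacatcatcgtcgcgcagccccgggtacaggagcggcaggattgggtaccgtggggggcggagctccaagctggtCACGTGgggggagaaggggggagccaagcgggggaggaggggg
Klf3, chr5:64803271-64803520: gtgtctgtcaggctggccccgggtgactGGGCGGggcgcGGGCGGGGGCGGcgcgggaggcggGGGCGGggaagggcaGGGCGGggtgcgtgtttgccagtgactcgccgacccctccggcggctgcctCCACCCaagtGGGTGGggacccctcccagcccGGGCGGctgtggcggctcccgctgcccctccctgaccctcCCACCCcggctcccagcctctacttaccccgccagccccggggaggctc

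Promoter peaks were counted in the same way for the other lists. They were present at 14 of 18 immediate-early genes (77.8%), at 9 of 12 KLF cofactors (75.0%), at 7 of 8 genes upstream of *Klf2* and *Klf4* (87.5%), and at 4 of 8 other KLF and Sp factors (50%). At genes downstream of KLFs they were present at 1 of 9 endothelial genes, *Thbd*, and at 1 of 10 genes linked to *Klf15*, *Slc2a4*, the insulin-regulated glucose transporter. These shares were not tested against each other.

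**Figure D5:**
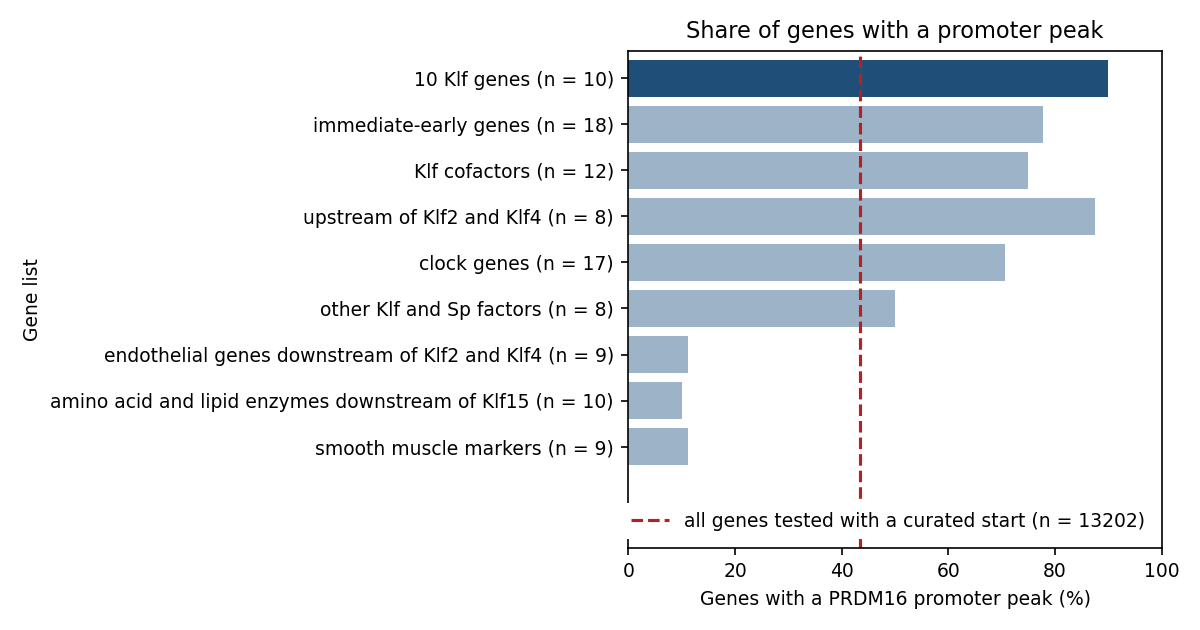
Percent of the genes in each list with a PRDM16 promoter peak, with the number of genes in brackets and a dashed line at 43.5%, the share over genes tested with a curated TSS. The bar of the 10 KLF genes ends at 90.0%, and those of endothelial genes downstream of *Klf2* and *Klf4*, of enzymes linked to *Klf15*, and of smooth muscle markers end under 12%.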

How the data were processed

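RNA-Seq was deposited as TPM per gene with 1 column per aorta, and the columns named WT and KO were taken as the control and Prdm16SMKO samples of the same number. Libraries were poly(A)-selected per the labels, and the submitters' processing notes name STAR 2.7.8a and RSEM 1.3.3. The authors called peaks with MACS2 at a q of 0.01 after mapping to GRCm38 with bowtie2. The methods give the human preset for the genome size in MACS2, which enters its genome-wide background and so may affect fold enrichments and q values. From the deposited peaks, the fold enrichment (a ratio to local background) and −log10 q were taken unchanged. Which library served as MACS2 control is not given in the sources used here, and the IgG libraries were not analysed here.

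Groups were compared by limma 3.58.1 (R 4.3.3; lmFit, then eBayes with trend) after log2(TPM + 0.1) conversion, without covariates. Genes below 0.5 TPM on average were left out. The fit was tested on simulated data. Curated RefSeq transcripts gave the TSSs, and GENCODE M21 the overlapping genes. A CpG-rich promoter had at least 50% GC and an observed to expected CpG ratio of at least 0.6. Genes named were the 10 KLF genes, *Prdm16*, and, of each list, genes that were called, were among the 4 with the smallest *P* value, or stand beside a KLF gene for their role. Values of 2 genes of these lists are not reported here. The members and lists were chosen with earlier results of these data known. Alternatives changed the pseudocount, filter, scaling, trend, replicate block, peak threshold, promoter window, or left out 1 aorta. Sequence and figure work used Python 3.11.15 with pysam 0.24.0 and matplotlib 3.10.9.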

Additional observations from a re-analysis of the deposited data

How the results depend on the processing

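None of the 10 KLF genes was called by limma in any of 14 other settings, and the lowest adjusted *P* value among them in each setting was between 0.071 and 0.48. *Klf6* was lower in all 14, with log2 fold changes from −0.53 to −0.30. *Klf2*, *Klf4*, and *Klf13* were also lower in all 14, and *Klf3* and *Klf10* were higher in all 14. *Klf11* was at 0.0020 after median-ratio rescaling. With that rescaling, *Klf2* was at −0.24, *Klf3* at 0.27, *Klf10* at 0.29, and *Klf13* at −0.23. With 1 aorta left out at a time, log2 fold changes ranged from −0.0021 to 0.42 for *Klf5*, from −0.10 to 0.14 for *Klf9*, from −0.23 to 0.04 for *Klf11* (0.043 without control aorta 1), and from −0.06 to 0.24 for *Klf15* (−0.059 without Prdm16SMKO aorta 2). The cause was not tested. Over the other gene lists, 7 genes were called, against 3 without a TPM filter, 18 after median-ratio rescaling, 17 after quantile normalization, 0 without the mean-variance trend, and 3 to 8 with 1 aorta left out (3 without control aorta 1 and 4 without control aorta 3). Over all genes, the 168 calls became 110 without a TPM filter, 413 after median-ratio rescaling, 392 after quantile normalization, 48 without the trend, and 91 to 141 with 1 aorta left out. *Prdm16* was called after median-ratio rescaling, after quantile normalization, and without Prdm16SMKO aorta 2 (adjusted *P* = 0.024, 0.033, and 0.040 by limma).

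Same-numbered aortas did not deviate together over all genes (correlations of −0.025, −0.07, and −0.0090). These correlations do not settle whether the numbers pair samples for some genes, and the labels do not say. With the replicate block, 0 KLF genes were called, their median log2 fold change was −0.04, and 184 genes were called over all. The depth behind TPM is unknown, and each peak list rests on 1 library.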
